A study of Mus musculus with 6 samples.

Results

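The genes examined here were 10 regulators of the G1 phase of the cell cycle: the D-type cyclins Ccnd1, Ccnd2 and Ccnd3, the kinases Cdk4 and Cdk6, the transcription factor E2f3, and the inhibitors Cdkn1a, Cdkn1b, Cdkn2a and Cdkn2c. They were chosen by name out of 22380 annotated protein-coding genes. For each gene, accessible regions were counted in the gene body plus 50 kb to either side, and separately within 1 kb of the gene's own annotated starts. This gave 75 of the 32527 regions of the series, 13 of them at an own start, and none of the 75 lay in more than 1 of the 10 windows.

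Accessibility was measured by ATAC-Seq, in which a transposase cuts and tags open chromatin, in Beko cells, a mouse pre-T cell line. Of the 6 libraries, 3 came from cells given the solvent DMSO and 3 from cells given DAPT for 24 h, a γ-secretase inhibitor (GSI) that blocks Notch activation. The labels give the DAPT dose as 10 mg/ml, whereas the study's methods give the same figure in μg/ml. The data are 1 merged list of accessible regions (peaks) over both treatments that holds positions and no value per library, so the GSI and DMSO cells were not compared here, values carry no replicate error, and read depth was not used. In the list, 8 of 9 T-cell marker genes found in the annotation had a peak at an own start (not Cd3d), as did 0 of 4 myeloid and 2 of 3 erythroid markers (Gata1 and Klf1).

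D-type cyclins bind CDK4 and CDK6 and start the phosphorylation of the retinoblastoma protein, which then releases E2F factors that switch on genes for DNA replication. The INK4 inhibitors, among them those made by Cdkn2a, Cdkn2b and Cdkn2c, block CDK4 and CDK6, whereas the CIP/KIP inhibitors p21 (Cdkn1a) and p27 (Cdkn1b) bind cyclin-CDK complexes more broadly. In developing T cells, Ccnd3 and Cdk6 are known for driving the proliferation that follows pre-T-cell receptor signaling, and Cdkn2a is a tumor suppressor often lost in T-cell leukemia.

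The sequence before the starts of Ccnd2 and Ccnd3 is shown first, because a peak covered it at Ccnd3 and not at Ccnd2. Each line gives the 250 bases upstream of a coding start in build mm9 (NCBIM37), written 5′ to 3′ on the strand of the gene, with GGGCGG or its reverse complement CCGCCC, the core recognised by SP-family factors, in capitals. Ccnd2 lies on the minus strand (chr6:127101067-127101316), and Ccnd3 lies on the plus strand, with an upstream start (chr17:47641750-47641999) and a downstream start (chr17:47730166-47730415). The last line is the stretch before the 5′-most start of Cdkn2a, the start of its Arf transcript, on the minus strand (chr4:88940558-88940807). It was added after its values had been seen, as a CpG-rich promoter that no peak covered.
Ccnd2: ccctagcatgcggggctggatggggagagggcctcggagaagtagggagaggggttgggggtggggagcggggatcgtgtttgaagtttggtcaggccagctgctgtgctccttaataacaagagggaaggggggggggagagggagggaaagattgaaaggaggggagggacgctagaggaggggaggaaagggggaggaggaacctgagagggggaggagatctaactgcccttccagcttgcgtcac
Ccnd3 upstream start: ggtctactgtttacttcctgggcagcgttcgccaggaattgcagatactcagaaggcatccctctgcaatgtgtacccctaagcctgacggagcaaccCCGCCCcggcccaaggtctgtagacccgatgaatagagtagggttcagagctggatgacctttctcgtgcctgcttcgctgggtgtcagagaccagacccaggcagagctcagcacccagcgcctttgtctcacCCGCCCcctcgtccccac
Ccnd3 downstream start: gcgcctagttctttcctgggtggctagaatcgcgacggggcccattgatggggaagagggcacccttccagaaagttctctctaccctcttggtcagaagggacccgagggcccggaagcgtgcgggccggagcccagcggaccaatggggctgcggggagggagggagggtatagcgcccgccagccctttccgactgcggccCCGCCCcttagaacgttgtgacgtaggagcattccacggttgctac
Cdkn2a: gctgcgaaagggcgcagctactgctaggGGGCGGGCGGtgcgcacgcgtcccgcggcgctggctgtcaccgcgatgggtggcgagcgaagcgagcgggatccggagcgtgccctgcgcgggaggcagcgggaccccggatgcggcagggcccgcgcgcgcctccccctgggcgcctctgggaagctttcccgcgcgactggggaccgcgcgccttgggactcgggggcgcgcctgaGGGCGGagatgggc

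The Ccnd2 stretch held no SP core, the Ccnd3 stretches 2 and 1, and the Cdkn2a stretch 3, a pair of which overlap. Among the 250-bp stretches before all 45975 annotated coding starts, 41.1% held at least 1 such core. Of the 250 bases, a peak covered 0 at Ccnd2, 218 and 244 at Ccnd3, and 0 at Cdkn2a. The GC content was 61.6% at Ccnd2, 59.6% and 64.8% at Ccnd3, and 77.6% at Cdkn2a.

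A peak lay within 1 kb of an own start in 9 of the 10 genes, against 46.9% of all protein-coding genes. The exception was Cdkn2a. In 8 of the 10 the start itself lay inside a peak, against 44.0% of coding genes. Genes with a CpG-rich start, defined here over a 500-bp window as 50% GC or more with a CpG observed/expected value of 0.6 or more, carry such a peak more often, and 9 of the 10 genes had one. Of coding genes with a CpG-rich start, 74.2% had a peak at a start, and 8 of these 9 did. Ccnd2 was the gene without a CpG-rich start. At least 1 peak in the window was found for 9 of the 10 genes, against 77.2% of coding genes.

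**Figure D1:**
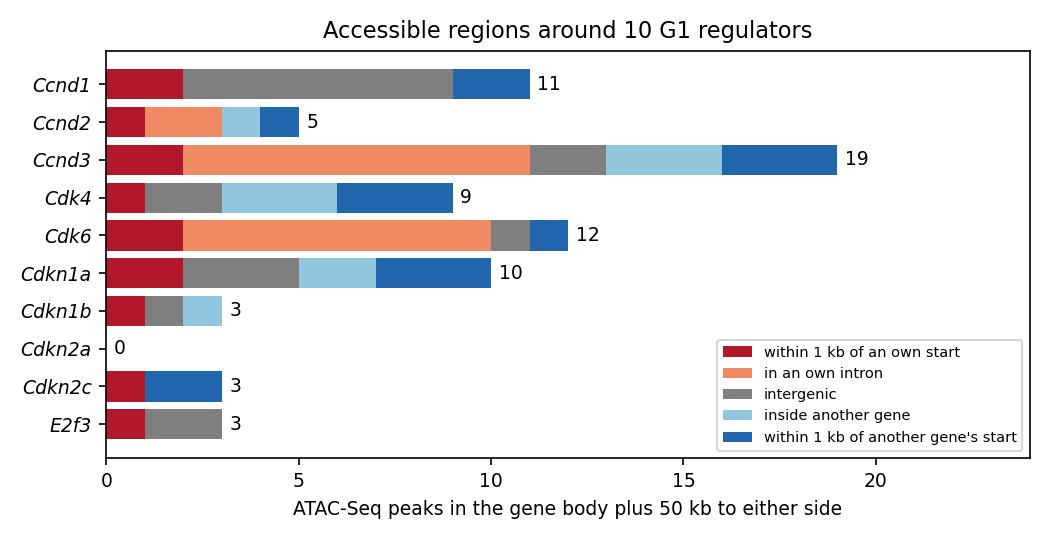
Number of ATAC-Seq peaks (x axis) in the gene body plus 50 kb to either side of each of the 10 genes (y axis), with bars divided by the place of the peak. Ccnd3 had 19 peaks, 9 of them in its own introns, and Cdkn2a had 0. None of the 11 peaks of Ccnd1 was classed as intronic, since peaks within 1 kb of any own start were classed there first.

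The 75 peaks were spread unevenly over the genes, from 0 at Cdkn2a to 19 at Ccnd3, as the bars of peaks per gene show. The median was 7 peaks per gene, and the median over all coding genes was 3 (quartiles 1 and 6). Per 100 kb of window the medians were 4.14 and 2.37. Of the 75, 13 lay at an own start, 19 in an own intron, 18 between genes, 10 inside another gene and 15 at the start of another gene. No peak centre fell in an own exon away from the starts. Those that lay over 1 kb away from any start in the annotation numbered 47, or 62.7%, close to the 64.6% of all peaks, and 26 of the 75 (34.7%) were CpG-rich, against 26.1% of all peaks.

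The D-type cyclins carried 11 peaks at Ccnd1, 5 at Ccnd2 and 19 at Ccnd3, in windows of 110 kb, 125 kb and 195 kb. Fewer peaks were found around 95.1% of coding genes than around Ccnd1, around 62.9% than around Ccnd2, and around 99.9% than around Ccnd3. Per 100 kb of window, Ccnd1 had 10.0 peaks, Ccnd3 9.76 and Ccnd2 3.99. The order of Ccnd1 and Ccnd3 by density depended on the window and on peak width. With a flank of 10 kb Ccnd1 had 20.0 and Ccnd3 11.3 peaks per 100 kb, whereas with peaks of at least 500 bp they had 3.64 and 6.68. Ccnd2 had the lowest density under each alternative tried. Of the peaks of Ccnd1, 7 lay upstream, and of those of Ccnd3, 9 lay in its introns. The genes differ in length, 9.94 kb at Ccnd1 and 94.6 kb at Ccnd3. Per 10 kb of gene body, Ccnd1 had 2.01 peaks, Ccnd3 1.16 and Ccnd2 0.791. The value of Ccnd1 rests on 2 peaks, both at own starts of a short gene. At Ccnd3, 9 of the 11 peaks that touched the gene were intronic.

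**Figure D2:**
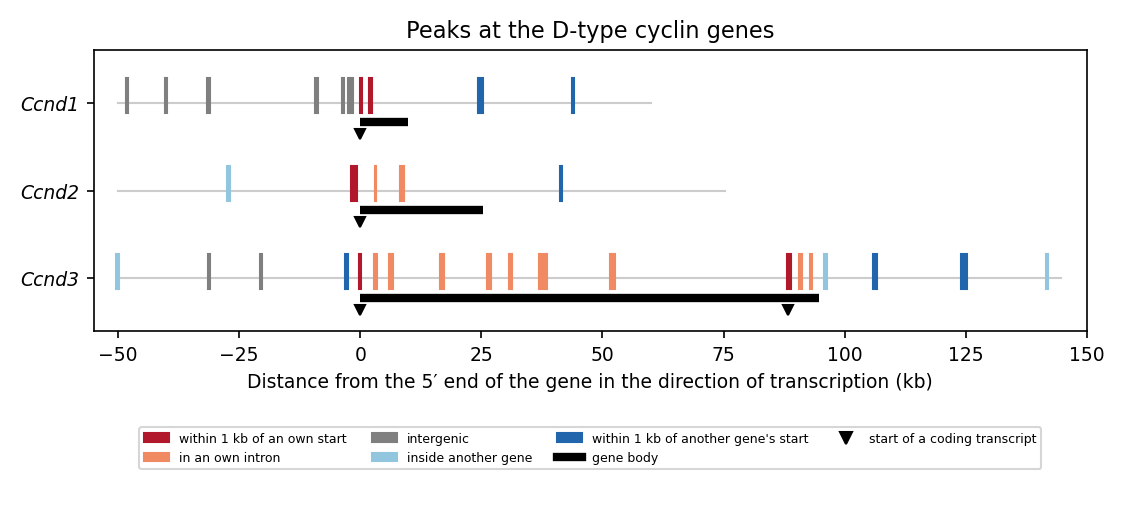
Peaks (coloured bars) at the 3 D-type cyclin genes by distance from the 5′ end in the direction of transcription (x axis, kb), with negative values upstream; black bars are gene bodies and triangles the starts of coding transcripts, and narrow peaks are drawn at a minimum line width. The 7 intergenic peaks of Ccnd1 lay upstream, whereas 9 of the 19 peaks of Ccnd3 lay in its introns.

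At Ccnd1 (chr7:152115836-152125774, minus strand) 7 of the 11 peaks lay upstream of the gene, 2 touched it and 2 lay downstream. The coding start lay in a peak of 442 bp that reached 97 bp upstream and 344 bp downstream. This peak was narrow for a start, since 8.71% of the 10738 peaks within 1 kb of a coding start were narrower. It was the only one of the 13 own-start peaks without GGGCGG. A peak of 496 bp lay inside the gene, 163 bp from the start of a retained-intron transcript.

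Upstream of Ccnd1, 7 intergenic peaks began at 1399, 2203, 3439, 8782, 30982, 39907 and 47918 bp from the start. Their widths ran from 284 to 686 bp. The first 3 were GC-rich, with observed to expected CpG ratios of 0.660, 0.633 and 1.18, and the other 4 were poor in CpG, with ratios from 0.0303 to 0.208. Within 10 kb of the 5′ end Ccnd1 had 6 peaks, a number reached by 8 coding genes in all, Ccnd1 included. This number depends on where peak calling split the region, since the first 3 upstream peaks were separated by 189 and 935 bp. With peaks of at least 500 bp, the whole window of Ccnd1 held 4. On the other side of the gene, the 2 peaks lay at the starts of Oraov1 and Fgf15, the second being a fibroblast growth factor gene.

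At Ccnd2 (chr6:127075797-127101066, minus strand) the single annotated start lay in no peak. The nearest was 1299 bp wide and began 632 bp upstream (chr6:127101698-127102996), so the 250 bases printed for Ccnd2 fell in the stretch without a peak. This peak held 6 GGGCGG cores, and 88.6% of peaks at coding starts were narrower. Inside the gene, 2 intronic peaks of 302 and 728 bp began 3000 and 8219 bp from the start. A peak of 551 bp lay 26884 bp upstream, inside the gene 9330179D12Rik, which also overlaps the 1299-bp peak. The remaining peak was at the start of 9630033F20Rik.

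At Ccnd3 (chr17:47642000-47736632, plus strand) both coding starts, which the annotation places at 47642000 and 47730416, lay in a peak. The peak at the upstream start was 355 bp wide, narrower than all but 2.74% of peaks at coding starts, and the peak at the downstream start was 694 bp wide, close to the lower quartile of 660 bp. Most of the peaks in the gene lay in its introns. There 9 peaks had a median width of 809 bp (449 to 1664 bp), whereas peaks more than 1 kb from every start had a median of 465 bp (quartiles 385 and 617) over the series.

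The widest peak of the Ccnd3 window was intronic, 1664 bp long and 36833 bp from the 5′ end (chr17:47678833-47680496). Another, of 1038 bp, began 51611 bp from the 5′ end. Beside the gene, 3 peaks lay at starts of other genes (Taf8 upstream and Bysl, Med20 and Usp49 downstream), which left 16 that did not, against 9 at Ccnd1 and 4 at Ccnd2.

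The 3 genes also differed in how many of their whole peaks held TGGGAA, the motif of RBPJ, the DNA-binding factor of the Notch pathway. TGGGAA, searched on both strands, was present in 14 of 19 peaks at Ccnd3, in 5 of 11 at Ccnd1 and in 1 of 5 at Ccnd2, with 28, 5 and 2 sites. Over all peaks 42.5% held it. At Ccnd3 7 of the 9 intronic peaks held it, with 19 sites, and neither peak at an own start did. At Ccnd1 and Ccnd2, too, no own-start peak held TGGGAA. The Ccnd3 peaks were wider, with a median of 694 bp against 445 bp at Ccnd1 and 551 bp at Ccnd2, and a wider peak offers more places for a match. At each of the 3 genes most peaks held no TGGGAA in their central 200 bp, and most of the Ccnd3 sites lay outside it. These are matches to letters, and RBPJ binding was not measured here.

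Stretches of 120 bases from peaks with TGGGAA sites are printed to show their surroundings, on the strand of the gene, with TGGGAA or its reverse complement TTCCCA in capitals. The Ccnd1 stretch is from the peak 2203 bp upstream (chr7:152128099-152128218), and the Ccnd2 stretch from the peak 26884 bp upstream (chr6:127128184-127128303). The first Ccnd3 stretch is from its widest intronic peak (chr17:47679167-47679286), and the second from the intronic peak 2139 bp beyond the downstream start (chr17:47732613-47732732), a peak of 578 bp with 4 sites. The stretches were chosen to hold the site, so its presence in them is no result, and those of Ccnd3 lie off the peak centres. For orientation only, 9.07% of all peaks held TGGGAA in their central 120 bases.
Ccnd1: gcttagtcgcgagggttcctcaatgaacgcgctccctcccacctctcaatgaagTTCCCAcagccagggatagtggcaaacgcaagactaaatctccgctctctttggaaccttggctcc
Ccnd2: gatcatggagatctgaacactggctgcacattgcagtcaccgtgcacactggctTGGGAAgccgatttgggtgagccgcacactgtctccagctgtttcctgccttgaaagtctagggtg
Ccnd3 widest peak: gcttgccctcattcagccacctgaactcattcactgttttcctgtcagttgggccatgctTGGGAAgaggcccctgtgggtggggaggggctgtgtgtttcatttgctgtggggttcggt
Ccnd3 downstream intron: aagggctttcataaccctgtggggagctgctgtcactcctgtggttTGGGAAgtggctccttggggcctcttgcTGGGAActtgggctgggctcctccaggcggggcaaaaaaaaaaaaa

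The kinase genes differed from each other in size and layout. Cdk4 (chr10:126500590-126504976, plus strand), a gene of 4.39 kb, had 9 peaks, of which 1 lay at its own starts and none elsewhere in the gene. This peak, 919 bp wide, held 7 of its 9 annotated starts, all of the coding ones among them. Of the other 8, 3 lay at starts of neighbours (Tsfm, Mettl1 with Fam119b, and Tspan31), 3 inside neighbours (Cyp27b1, March9 and Os9) and 2 between genes, at 8917 and 10078 bp from the nearest own start. The density of 8.62 peaks per 100 kb, which exceeded that of 95.4% of coding genes, thus included 6 peaks in or at other genes.

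Cdk6 (chr5:3343893-3523218, plus strand), a gene of 179 kb, had 12 peaks. Both coding starts lay in a peak of 1277 bp, and 391 bp upstream of it was a peak of 1886 bp, wider than 99.0% of peaks at coding starts. A further 8 peaks were intronic, from 11436 to 172358 bp beyond the nearest start. These intronic peaks were narrow, with a median of 425 bp (296 to 828 bp) against 809 bp at Ccnd3. TGGGAA was present in 4 of the 8, against 39.2% of all peaks more than 1 kb from every start. Per 100 kb, Cdk6 had 4.30 peaks, and 71.5% of coding genes had a lower density.

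E2f3 (chr13:29998444-30077537, minus strand), whose product is an E2F factor released from the retinoblastoma protein, had 3 peaks in a window of 179 kb. A single peak of 2685 bp covered both coding starts. Of the 10738 peaks at coding starts, 5 were this wide or wider, E2f3 included. It held 9 GGGCGG cores and also TTTCGCGC or TTTGGCGC, forms of the E2F site searched on both strands, which 1.57% of all peaks and 3.68% of peaks at coding starts held. The body of the gene, 79.1 kb, held no other peak. The other 2 peaks, of 490 and 314 bp, began 17411 bp upstream of the gene and 126476 bp beyond the nearest start on the far side.

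**Figure D3:**
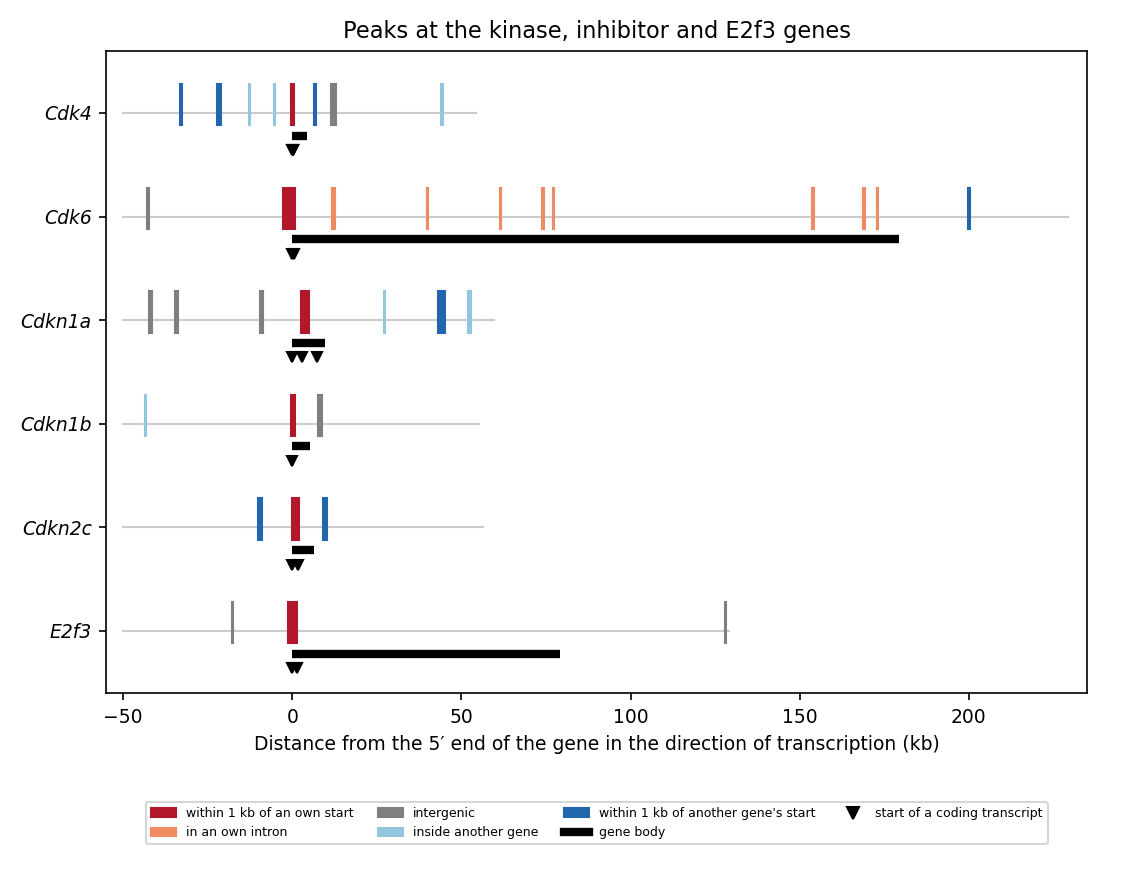
Peaks (coloured bars) at 6 further genes by distance from the 5′ end in the direction of transcription (x axis, kb), drawn as for the D-type cyclins. The 8 intronic peaks of Cdk6 and the bare body of E2f3 stand in contrast, and at the 3 inhibitor genes no peak lay in an own intron away from a start.

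Cdkn1a (chr17:29227924-29237667, plus strand), which encodes p21, a target of p53, had 10 peaks. Of its 3 coding starts, the middle one at 29230717 lay in a peak of 706 bp, and a peak of 1338 bp followed 321 bp further on. The 5′-most start lay 2536 bp from the nearest downstream peak and the 3′-most 2328 bp from the nearest upstream one. Upstream, 3 intergenic peaks of 1059, 857 and 886 bp began at 8564, 33694 and 41409 bp, each with 1 TGGGAA site, and each was wider than the upper quartile of 617 bp for peaks away from starts. Downstream, 3 of the 5 peaks lay at the start of Rab44. TGGGAA was present in 8 of the 10 peaks, against 42.5% of all peaks. The 10 peaks were wide, with a median of 781.5 bp against 551 bp over the series. Most of them held no TGGGAA in their central 200 bp.

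Cdkn1b (chr6:134870419-134875531, plus strand), which encodes p27, had 3 peaks. The start lay in a peak of 1226 bp. Downstream of the gene was an intergenic peak of 1383 bp, wider than the peak at the start, with a CpG observed/expected value of 0.824 and an E2F site. It began 7484 bp from the start. The third peak, of 367 bp, lay inside Gpr19.

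Cdkn2c (chr4:109333481-109339794, minus strand), which encodes the INK4 inhibitor p18, had 3 peaks. As at E2f3, 1 wide peak covered both coding starts. It was 2101 bp wide, a width that 54 of the 10738 peaks at coding starts reached. The other 2, of 1275 and 1210 bp, lay at the starts of the neighbours 9630013D21Rik and Faf1. All 3 held TGGGAA and GGGCGG, against 42.5% and 38.7% of all peaks. All 3 were also wider than the series median of 551 bp, and a wider peak offers more places for a match.

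**Figure D4:**
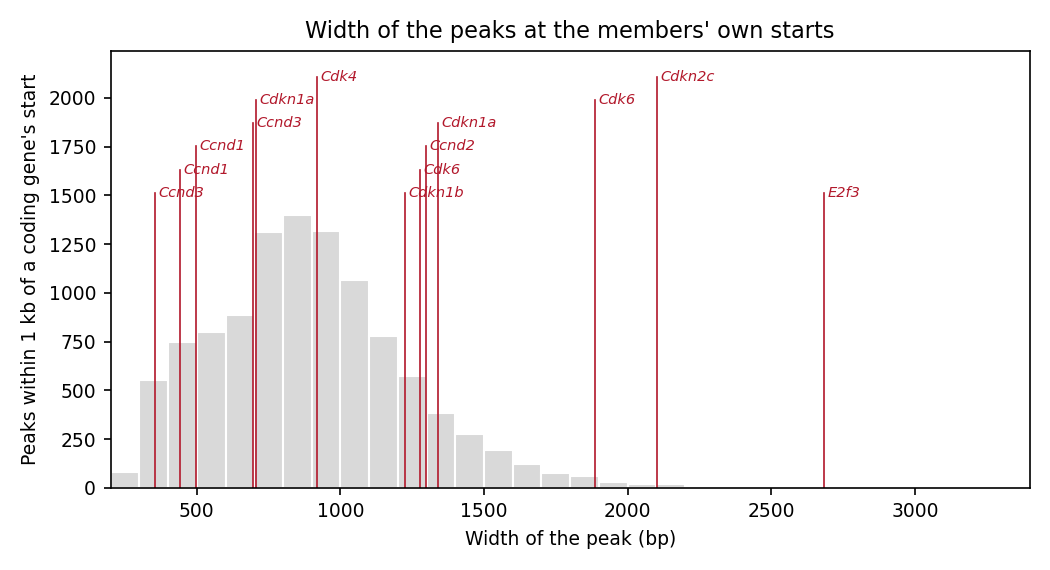
Histogram of the width of the 10738 peaks within 1 kb of a coding gene's start (x axis, bp, y axis, number of peaks), with the 13 peaks at own starts of the 10 genes as red lines whose heights only separate the labels. The peaks of Ccnd1 and Ccnd3 lie in the lower part, whereas the wider peak of Cdk6 and those of Cdkn2c and E2f3 lie in the upper tail.

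Put in order, the 13 peaks at own starts ran from 355 bp at Ccnd3 to 2685 bp at E2f3, with a median of 1226 bp against 870 bp for all peaks at coding starts (quartiles 660 and 1086). All 4 peaks at the starts of Ccnd1 and Ccnd3 were narrower than that median, as the histogram of widths shows, and so was 1 of the 2 at Cdkn1a. The width is where the authors' peak calling set the edges, and no value for signal was in the list.

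At Cdkn2a (chr4:88920377-88940557, minus strand), which encodes both the INK4 inhibitor p16 and, from its upstream start, the p53 activator ARF, no peak was found in the gene or within 50 kb. None of its 3 coding starts, at 88940557, 88940523 and 88928096, lay within 136 kb of a peak. The upstream start was CpG-rich, with a GC content of 72.1% and an observed to expected CpG ratio of 0.983, and the downstream one had 61.3% and 0.595. Cdkn2a was thus the only one of the 9 genes with a CpG-rich start that had no peak there.

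The stretch without a peak ran from chr4:88791726 to 90393091, a length of 1601 kb. The list has 32505 stretches between neighbouring peaks with a median of 18.9 kb, and 267 of these (0.821%) were as long or longer, 16 of them among the 2061 on chromosome 4. Assembly gaps made up 3.20% of the stretch. On the 3′ side of Cdkn2a the nearest peak, of 483 bp, was 129 kb from the gene, in Mtap. On the 5′ side the nearest, of 354 bp, was 1453 kb away.

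**Figure D5:**
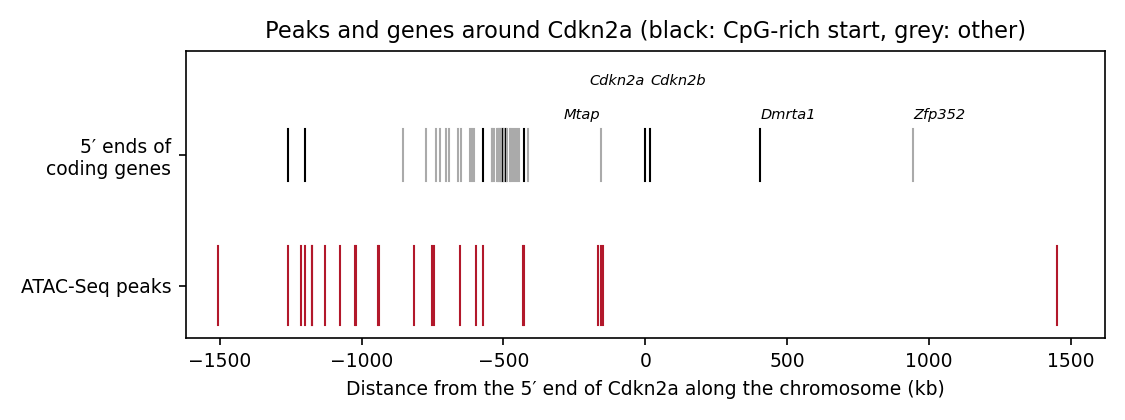
Peaks (red, lower row) and 5′ ends of coding genes (upper row, black where the start is CpG-rich) by distance from the 5′ end of Cdkn2a along the chromosome (x axis, kb). All 13 peaks within 1 Mb lay on the side of Mtap, and the side of Cdkn2b had 0.

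The stretch held 4 coding genes. These were Cdkn2a, its neighbour Cdkn2b, which encodes the INK4 inhibitor p15, Dmrta1 and Zfp352, and all but Zfp352 had a CpG-rich start. As many CpG-rich coding genes or more were held by 91 of the 32505 stretches. The start of Cdkn2b was 165216 bp from the nearest peak. By contrast, the start of Mtap, an enzyme gene on the other side, lay in a peak of 1017 bp. Within 1 Mb of the 5′ end of Cdkn2a 13 peaks were found, against a median of 40 for coding genes, and 17.8% of coding genes had fewer. From a list of peaks, closed chromatin and DNA missing from these cells cannot be told apart, and copy number was not analysed here.

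Other genes of the G1 pathway, 25 in a list that holds E cyclins, further kinases, retinoblastoma and E2F family members, inhibitors and regulators of p53 and of protein turnover, were read the same way. A peak at an own start was found in 22 of the 25, against 46.9% of all coding genes. A CpG-rich start was found for 23 of the 25, and 74.2% of coding genes with such a start had a peak there. The 3 without one were all CDK inhibitors, Cdkn1c, Cdkn2b and Cdkn2d, and each had a CpG-rich start. The nearest peak was 3587 bp from a start at Cdkn1c, which encodes p57, and 17995 bp at Cdkn2d, which encodes the INK4 inhibitor p19. Their windows held 6 and 7 peaks, so that Cdkn2b, with 0, was the one of the 3 with no peak in its window. Rb1, E2f1, Ccne1, Ccne2 and Cdk2 had start peaks of up to 1421, 1491, 1327, 1490 and 1064 bp. The median of all peaks at coding starts was 870 bp. Other genes of the list had narrower ones, among them E2f6 (668 bp), Mnat1 (673 bp), Cdk7 (725 bp), E2f4 (807 bp) and E2f5 (816 bp). Among the INK4 genes, Cdkn2c was thus the one with a peak at a start.

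Over all members' peaks, TGGGAA was present in 43 of 75 (57.3%, 95% Wilson interval 46.1 to 67.9%, which covers counting error only), against 42.5% of all peaks. Of those 43, 14 lay at Ccnd3 and 8 at Cdkn1a. The members' peaks were slightly wider, with a median of 578 bp against 551 bp. In the central 200 bp of each peak the shares were 14.7% and 15.3%, so the higher share over whole peaks was not found at their centres. With TGAGAA allowed as well, the shares over whole peaks were 65.3% and 62.5%.

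GGGCGG was present in 12 of the 13 own-start peaks, against 79.4% of peaks at coding starts. Of the 47 peaks more than 1 kb from every start, 16 held it (34.0%, interval 22.2 to 48.3%), against 17.9% of such peaks in the series. Intervals in this paragraph, too, cover counting error only, and they treat peaks of the same gene as independent. CAGCTG, the E-box bound by E proteins of lymphoid cells, was present in 27 of these 47 (57.4%, interval 43.3 to 70.5%), against 43.9%. It was found in 7 of the 9 intronic peaks at Ccnd3 and in 6 of the 8 at Cdk6. Other peaks away from starts were mixed. At Ccnd3, 0 of 3 peaks inside another gene and 0 of 2 intergenic peaks held it. Of intergenic peaks, 3 of 7 at Ccnd1, 3 of 3 at Cdkn1a, 0 of 2 at Cdk4 and 0 of 2 at E2f3 held it. At own starts, 4 of the 13 peaks held it, against 40.5% of peaks at coding starts. The members' peaks away from starts were wider, with a median of 498 bp against 465 bp. In the central 200 bp of all 75 members' peaks, GGGCGG was present in 25.3% and CAGCTG in 26.7%, against 23.4% and 21.3% of all peaks. These shares include peaks at starts. They cannot tell whether the higher shares away from starts held at peak centres. The E2F site was present in 3 of the 75 peaks, against 1.57% of all peaks. They were those named at E2f3 and Cdkn1b and the peak at the start of Faf1 beside Cdkn2c. All 3 were wide, at 2685, 1383 and 1210 bp. In the central 200 bp, 0 of the 75 held the site, against 0.467% of all peaks.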

How the data were processed

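ATAC-Seq was performed in 6 libraries of Beko cells, 3 treated with GSI and 3 with DMSO, as the labels give them. According to the study's methods and the labels, the authors aligned reads to build mm9 with HISAT2 2.2.1, removed duplicates with Picard, called peaks without an input control with MACS2, and kept peaks found in 3 of the 6 libraries outside blacklisted regions. A shift of read ends to the transposase cut site is not given in the sources used here. The list does not record which libraries held a peak, so a peak of 1 treatment cannot be told from a shared one. The deposited values are positions in bp, without a name or score.

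Positions were converted to counting from 1 and compared with GENCODE annotation vM1 on NCBIM37, the same build, within which all peaks lay. A peak belonged to a window when they overlapped by at least 1 bp, and distances were taken from its nearest edge to the starts of all transcripts of the gene. Peaks were then classed in order as own start, start of another gene, own exon or intron at the peak centre, inside another gene, or intergenic. Counts were made with numpy 2.4.6 under Python 3.11.15, intervals with scipy 1.17.1, and plots with matplotlib 3.10.9. Overlap counting was tested on simulated intervals. No test was made, since 1 merged list has no replicates. Members and lists were chosen with earlier results of these data known. Named were the members, their peaks at own starts, nearest, widest and richest in TGGGAA, the neighbours of Cdkn2a and listed G1 genes without a start peak, and other peaks, neighbours and G1 genes were named after their values were seen. T-cell markers were Cd3e, Cd3d, Cd3g, Ptcra (not matched here), Bcl11b, Tcf7, Lck, Thy1, Rag1 and Rag2, myeloid markers Csf1r, Cebpa, Lyz2 and Elane, and erythroid markers Gata1, Hba-a1 and Klf1. A further marker list and 1 promoter sequence are not reported here. The CpG criterion was set after the data had been seen. Alternatives were other flanks and distances, coding transcripts only, peaks of at least 500 bp, joining of peaks within 1 kb, leaving out peaks at other genes' starts, a degenerate motif and the central 200 bp.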

Additional observations from a re-analysis of the deposited data

How the results depend on the processing

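The count of genes with a peak at an own start was 9 within 5 kb and with coding transcripts only, and 8 with the start inside the peak (without Ccnd2) or with peaks of at least 500 bp (without Ccnd1). The total of 75 peaks became 46 with a flank of 10 kb, 115 with 100 kb and 44 with peaks of at least 500 bp, and stayed within 1.5 times when close peaks were joined (68) or peaks at other genes' starts were left out (60). Ccnd1 had 6 peaks with the 10-kb flank and 4 with the width minimum, and Ccnd2 had 3 under either, whereas Ccnd3 had 13 under either, so the order of the 3 genes by count was the same under each alternative tried. By density, Ccnd1 was above Ccnd3 with the 10-kb flank (20.0 and 11.3 peaks per 100 kb) and below it with the 100-kb flank (6.67 and 8.15), with the width minimum (3.64 and 6.68), with close peaks joined (8.19 and 9.76) and without peaks at other genes' starts (8.19 and 8.22). Of the 7 other genes, 4 stayed within 1.5 times with the 10-kb flank, 3 with the 100-kb flank and 5 with the width minimum. The stretch without a peak at Cdkn2a grew to 5439 kb when peaks had to be at least 500 bp wide. This longer stretch took in 3 narrower peaks, among them both that bound the shorter one. The share of members' peaks with TGGGAA was 65.3% with TGAGAA allowed, close to the 62.5% of all peaks. In the central 200 bp, where less sequence is searched, it was 14.7%, against 15.3% of all peaks. No library could be left out of a merged list, and its depth is not recorded in it. No paired analysis was possible because no library has values of its own in the merged peaks.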
